A study of Rattus norvegicus with 30 samples.

Results

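Primary rat inner medullary collecting duct cells in culture were examined 12 h after the osmolality of their medium was raised to 900 mosmol/kg, against cells that had stayed at 600 mosmol/kg. The 6 arrays were taken by sample title from the 30 arrays of the series: 3 challenged arrays, numbered replicates 1, 2 and 9, and 3 steady 600 arrays, numbered replicates 1, 2 and 3. Both groups were primary cultures from the rat renal inner medulla, with no genotype, strain or age in the labels, and both had been grown at 600 mosmol/kg. As far as the labels say, they differed only in the 12 h challenge. The other 24 arrays covered cells kept at 900 or 300 mosmol/kg, a 24 h challenge of the same kind, steps of 3, 12, 24 and 48 h up to 600 mosmol/kg, and a return to 300 mosmol/kg. The treatment field of each sample lists 5 µM cyclosporin A, a calcineurin inhibitor, and none of the titles does, so which cultures were exposed to it is not settled by the labels. The labels state neither the purity of the cultures nor what the number 9 stands for.

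The inner medulla is the saltiest part of the kidney, and its collecting duct cells meet large swings in osmolality as urine is concentrated and diluted. Hypertonic medium draws water from cells, which take up ions and then replace them over hours with compatible organic osmolytes such as sorbitol, myo-inositol, betaine and taurine. The transcription factor NFAT5 drives many genes of this replacement, together with chaperones that guard proteins at high ionic strength. Strong hypertonicity is also known to damage DNA, to halt the cell cycle and to slow translation.

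RNA was measured on whole-transcript expression arrays as log2 values, on which a change of 1 is a doubling. Changes are challenged minus steady 600, given as log2 change ± SE of a limma fit over all 30 arrays, with n = 3 arrays per group and p-values adjusted by the Benjamini-Hochberg method over 14506 genes. A gene was called where the adjusted p was below 0.05. Nothing in the labels tells whether replicates came from different cultures or rats, and the p-values then describe only the spread among these arrays, possibly a technical one. The cells carried markers of their label: Aqp2, the vasopressin-regulated water channel, averaged 9.95 ± 0.14 in challenged arrays and 10.07 ± 0.48 in steady 600 arrays (SD, n = 3 each). The mean of 12 epithelial markers was 10.17 to 10.22 in challenged arrays and 10.24 to 10.26 in steady 600 arrays. Markers of intercalated cells averaged 4.44 to 4.54 in challenged arrays and 4.60 to 4.85 in steady 600 arrays, below the array medians of 5.63 to 5.76.

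Replicate 9 stood somewhat apart from the other challenged arrays. Its values differed from the mean of the other 2 by a median of 0.19, against 0.13 for both replicate 1 and replicate 2. The median SD of a gene was 0.14 in challenged arrays and 0.09 in steady 600 arrays. Correlations were 0.991 to 0.997 among challenged arrays, 0.997 to 0.998 among steady 600 arrays and 0.978 to 0.980 between the groups, and each of the 30 arrays was closest to an array of its own group.

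At 12 h, 1812 genes were higher (12.5% of the genes tested) and 3672 were lower (25.3%), with 37.8% called in either direction. The list counts below are to be read beside these shares. In 6316 genes (43.5%) the 3 challenged arrays did not overlap the 3 steady 600 arrays. Changes of at least 2-fold were fewer, with 142 genes higher (0.979%) and 412 lower (2.84%). The median over all genes was -0.03. The balance of directions depended on how the arrays were scaled to each other: 67.0% of calls were lower as deposited, 53.3% after cyclic loess, 49.3% after quantile normalization and 37.8% after median centring, which moved the median of all genes to 0.12. All 142 and all 412 of the 2-fold genes kept their call and direction under these 3 scalings. Of the smaller changes, fewer did: 1791 of the 1812 higher genes and 2381 of the 3672 lower genes were called the same way under all 3. As deposited, 52.6% of calls were lower among the 4835 dimmest genes and 70.2% among the 4836 brightest. In bulk RNA such as this, fewer cells of a type and less RNA per cell cannot be told apart.

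Large changes were also found without replicate 9. Without it, 1796 genes were called higher and 3974 lower, of which 149 and 497 passed 2-fold, against 142 and 412 with it. All 554 of the 2-fold genes kept their call. Those 554 were chosen with replicate 9 among the arrays, so its sign and size in them are a description and no test of it. None of the 554 had the opposite sign in replicate 9. The median change of the 142 higher genes was 1.29 in replicate 1, 1.34 in replicate 2 and 1.36 in replicate 9, and that of the 412 lower genes was -1.29, -1.31 and -1.19 in the same order. Among all calls replicate 9 went the other way more often than replicates 1 and 2 did, in 138 of the 3672 lower genes and 19 of the 1812 higher ones. It lay nearer to steady 600 than both other arrays in 56.1% of the lower genes and in 38.1% of the higher ones. It lay farther from steady 600 than both in 29.9% of the lower genes and in 47.3% of the higher ones. Among the 2-fold genes it lay farther in 23.8% of the 412 lower and 52.8% of the 142 higher.

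**Figure D1:**
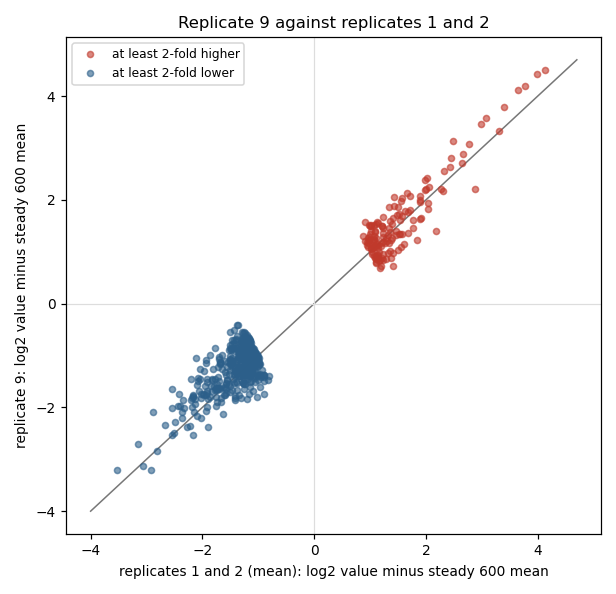
Log2 change of each of the 554 genes changed at least 2-fold, in replicate 9 (vertical axis) against the mean of replicates 1 and 2 (horizontal axis), both as the array's log2 value minus the steady 600 mean. Red points are the 142 higher genes, blue points the 412 lower genes and the grey diagonal equal change. Every point lies in the quadrant of its own direction, and the genes were chosen with replicate 9 included.

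The largest increase was in Sla, which encodes a Src-like adaptor that dampens receptor signalling in lymphocytes. Its log2 values were 11.25, 11.23 and 11.60 in challenged arrays and 7.29, 7.13 and 6.89 in steady 600 arrays. The groups lay far apart, and the rise of 4.26 ± 0.10 is 19.1-fold (adjusted p = 9.35e-23, limma). Mmp13, a secreted collagenase, had 12.22, 12.18 and 12.65 in challenged arrays and 8.42, 7.99 and 8.23 in steady 600 arrays, a rise of 4.14 ± 0.17 (17.6-fold). Ptgs2, the inducible cyclooxygenase that makes prostaglandins in the medulla, had 10.63, 10.64 and 11.05 in challenged arrays and 6.88, 6.83 and 6.88 in steady 600 arrays, a rise of 3.91 ± 0.09 (15.1-fold). Replicate 9 was the highest challenged array for Sla, Mmp13 and Ptgs2, and for all others of the 15 largest increases except Npy4r and Fa2h. All 30 of the largest changes named were chosen among genes without overlap between the groups.

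Next came Ccl20, a chemokine that attracts lymphocytes and dendritic cells, with a rise of 3.81 ± 0.16, and S100a5, a calcium-binding protein, with 3.53 ± 0.14. Npy4r, the receptor for pancreatic polypeptide, had 6.78, 6.98 and 6.90 in challenged arrays and 3.54, 3.58 and 3.59 in steady 600 arrays, a rise of 3.32 ± 0.13. The inward-rectifier potassium channel gene Kcnj13 had 7.92, 7.58 and 8.25 in challenged arrays and 4.88, 4.57 and 4.59 in steady 600 arrays, a rise of 3.24 ± 0.14. For both genes the steady 600 values lay below the array medians, in the dim range where array values flatten. Hspa4l, an osmotic chaperone of the HSP110 family, rose by 3.14 ± 0.10. The other 7 of the 15 largest increases were the keratin Krt23 (2.87), the serine protease family gene Prss35 (2.73), Dlgap5l2 (2.69), the solute carrier Slc4a11 (2.66), the fatty acid hydroxylase Fa2h (2.65), Tm6sf1 (2.57) and Tmem72 (2.50). For Fa2h replicate 9 stood at 6.51, below replicates 1 and 2 at 7.18 and 7.17, and its SE was 0.22.

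The largest decrease was in Ankrd1, a nuclear ankyrin-repeat protein and a classic target of the mechanosensitive coactivator YAP. It had 5.77, 6.12 and 6.27 in challenged arrays and 9.43, 9.54 and 9.46 in steady 600 arrays, a change of -3.42 ± 0.11 (10.7-fold lower, adjusted p = 1.25e-19, limma). Clec4a3, a lectin receptor of myeloid cells, had 4.42, 4.42 and 4.34 in challenged arrays and 7.30, 7.51 and 7.62 in steady 600 arrays, a change of -3.08 ± 0.15. In neither gene did any challenged array come within 2 log2 units of the lowest steady 600 array. Casp1, the protease that matures interleukin 1 beta, had 4.69, 4.46 and 5.03 in challenged arrays and 7.87, 7.68 and 7.66 in steady 600 arrays, a change of -3.01 ± 0.17. Mmp7, the epithelial matrix protease matrilysin, had 4.94, 4.94 and 4.64 in challenged arrays and 7.83, 7.82 and 7.90 in steady 600 arrays, a change of -3.01 ± 0.20. Thus Mmp13 and Mmp7, both matrix metalloproteinases, were among the largest changes in opposite directions.

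The phosphate carrier gene Slc34a2 fell by 2.82 on the log2 scale and Cp, the copper-carrying ferroxidase ceruloplasmin, by 2.61. For Cp replicate 9 at 7.78 was nearer to steady 600 than replicates 1 and 2 at 6.95 and 7.04. Complement C3 had 7.44, 7.56 and 7.51 in challenged arrays and 10.10, 10.02 and 10.02 in steady 600 arrays, a change of -2.54 ± 0.09. The other 8 of the 15 largest decreases were the interferon-induced genes Rtp4 (-2.56), Ifi47 (-2.41) and Usp18 (-2.37), the macrophage complement receptor Vsig4 (-2.51), the retinoid-metabolising reductases Dhrs3 (-2.31) and Dhrs9 (-2.29), the nucleoside carrier Slc28a2 (-2.31) and the surface protein Ly6c (-2.28).

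**Figure D2:**
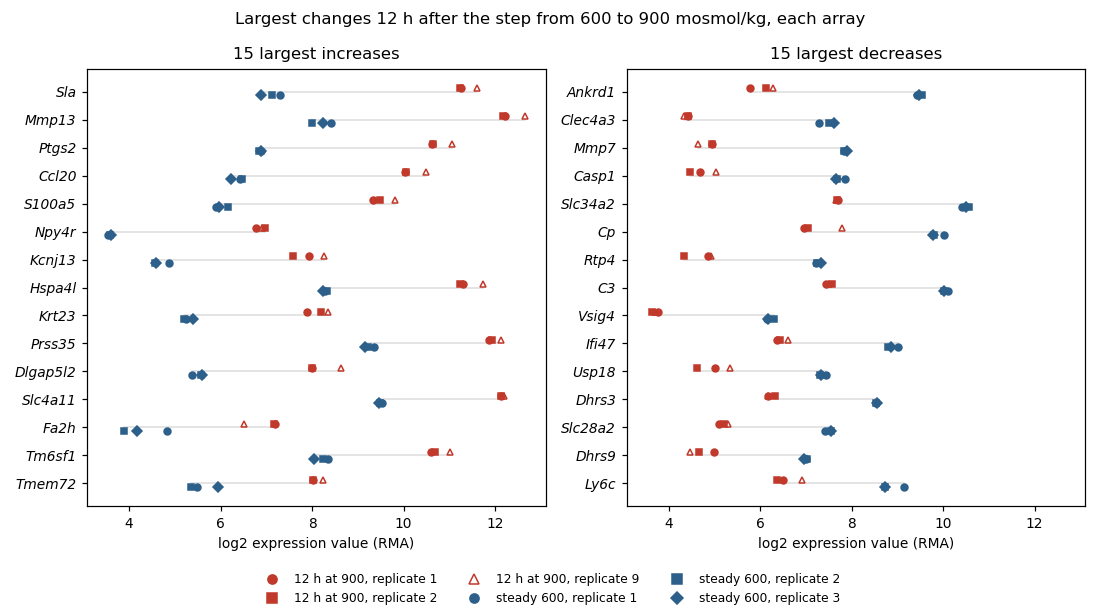
Log2 expression value (horizontal axes) in each array for the 15 largest increases (left) and the 15 largest decreases (right). Red symbols are challenged arrays, with replicate 9 as an open triangle, and blue symbols are steady 600 arrays. The genes were chosen among those without overlap between the groups. Among the increases, the open triangle lies furthest right of the red symbols for all genes but Npy4r and Fa2h.

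The genes best known for the organic osmolyte response rose, most of them by less than 2-fold. Of 10 measured genes of the tonicity and organic osmolyte list, 8 rose and 1 fell, with a median change of 0.50 against -0.03 over all genes. Slc5a3, the myo-inositol importer, had 10.08, 10.14 and 10.28 in challenged arrays and 8.33, 8.19 and 8.10 in steady 600 arrays, a rise of 1.96 ± 0.09 (3.89-fold). Akr1b1, the aldose reductase that makes sorbitol from glucose, had 13.58, 13.50 and 13.55 in challenged arrays and 12.71, 12.68 and 12.62 in steady 600 arrays. Its rise of 0.88 ± 0.06 was clear of the spread, but its values lay near 13.88, the highest value in the table, where array values flatten and changes can be understated. Slc6a6, the taurine importer, rose by 0.35 ± 0.06, Nfat5 itself by 0.43 ± 0.11 and the calcium-binding gene S100a4 by 0.89 ± 0.12. For S100a4 replicate 9 at 9.99 lay between steady 600 and the other challenged arrays at 10.49 and 10.50. Sord, the sorbitol dehydrogenase that removes sorbitol, was the member that fell, by 0.57 on the log2 scale (SE 0.13). The betaine importer gene Slc6a12 was not analysed here.

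Among 24 measured heat shock proteins and co-chaperones 7 rose and 5 fell, a median of 0.05. The HSP70 genes Hspa1a and Hspa1b had only probe sets with several gene symbols and were not analysed here. The HSP110 family led, with Hspa4l at 11.30, 11.24 and 11.74 in challenged arrays and 8.29, 8.32 and 8.25 in steady 600 arrays, and Hsph1 at 11.83, 11.70 and 12.12 in challenged arrays and 10.14, 10.04 and 9.96 in steady 600 arrays. Hsph1 rose by 1.84 ± 0.08 (3.57-fold). Hspa2, an HSP70 known as osmotically induced in the medulla, rose by 0.83 ± 0.09 and the mitochondrial chaperonin Hspd1 by 0.48 ± 0.08, whereas its partner Hspe1 fell by 0.26. The small heat shock proteins Hspb1 (-0.52) and Hspb8 (-0.74) and the J-domain proteins Dnajb4 (-0.34) and Dnajb5 (-0.56) were lower. The count of higher chaperones depended on scaling: 12 rose after quantile normalization, 13 after median centring and 14 after cyclic loess, and 3 to 5 fell.

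Ion carriers of cell volume regulation rose more often than they fell, with 9 of 18 higher, 3 lower and a median of 0.22. Slc12a2, the sodium-potassium-chloride importer NKCC1 that loads shrunken cells with ions, had 11.63, 11.69 and 11.86 in challenged arrays and 9.60, 9.66 and 9.78 in steady 600 arrays. This was a rise of 2.05 ± 0.07, or 4.14-fold. Its activating kinases moved the same way, Stk39 (SPAK) by 0.73 ± 0.08, Oxsr1 by 0.30 and Wnk1 by 0.36. The sodium pump beta subunits Atp1b1 and Atp1b3 rose by 0.50 and 0.52, and the chloride channel subunit Bsnd by 0.65. Slc9a4, a sodium-proton exchanger, fell by 1.25 on the log2 scale (SE 0.12), while its relative Slc9a2 rose by 0.67. The potassium-chloride exporter Slc12a4 fell by 0.59, and of the 5 measured subunits of the volume-regulated anion channel only Lrrc8e (-0.35) was called.

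Of 17 amino acid transporters 7 rose and 3 fell, a median of 0.13. Slc7a1, an importer of arginine and lysine, had 10.81, 10.86 and 10.38 in challenged arrays and 9.31, 9.18 and 9.34 in steady 600 arrays, a rise of 1.40 ± 0.11. The glycine importer Slc6a9 rose by 1.04 ± 0.08, Slc38a4 by 0.89 ± 0.09, Slc7a6 by 0.85 ± 0.09 and Slc38a2, an importer of neutral amino acids with known osmotic induction, by 0.57. The glutamine carrier Slc1a5 (-0.49) and the exchanger Slc7a7 (-0.53) were lower.

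Collecting duct principal cell genes did not move as a block: 5 of 24 rose and 11 fell, a median of -0.25. Slc14a2, the vasopressin-regulated urea transporter gene of the inner medulla, had 10.09, 10.24 and 10.44 in challenged arrays and 9.28, 8.84 and 8.73 in steady 600 arrays, a rise of 1.30 ± 0.13. Aqp2 changed by -0.12 ± 0.20 with overlapping groups (adjusted p = 0.689, limma), and the spread of its 3 steady 600 arrays limits what could be seen. The water channels of the opposite cell side were lower: Aqp3 had 8.15, 8.15 and 7.79 in challenged arrays and 9.74, 9.12 and 9.04 in steady 600 arrays, a change of -1.27 ± 0.17, and Aqp4 changed by -1.19 ± 0.14. The sodium channel subunit Scnn1a (-1.13) and the sodium pump regulator Fxyd4 (-1.36) fell, and the tight junction protein Cldn8 changed by -1.83 ± 0.15. Tfcp2l1, a transcription factor of the collecting duct, fell by 1.02, while the transcription factor Elf5 rose by 1.15 and the cAMP-forming adenylyl cyclase Adcy6 by 0.82.

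Genes of cell division fell together. Of 20 measured mitosis genes 16 were lower and 0 higher, with a median of -0.73 and 8 at least 2-fold lower. Ttk, the spindle checkpoint kinase MPS1, had 3.81, 3.60 and 3.84 in challenged arrays and 5.49, 5.42 and 5.48 in steady 600 arrays, a change of -1.72 ± 0.10. Ccnb1, cyclin B1 of mitotic entry, had 5.79, 5.81 and 6.12 in challenged arrays and 7.43, 7.44 and 7.70 in steady 600 arrays, a change of -1.62 ± 0.13. The challenged values of Ttk lay low in the dim range, so the size of its fall can be understated. Ccna2 and Ccnb2 fell by 1.11 and 1.12, and Top2a, the topoisomerase that untangles chromosomes, by 1.39.

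Of 21 DNA replication genes 13 fell and 0 rose, a median of -0.44. Tyms, which makes thymidylate, averaged 6.97 ± 0.03 in challenged arrays and 8.33 ± 0.05 in steady 600 arrays (SD, n = 3 each), a change of -1.36 ± 0.09. The origin-licensing factor Cdc6 fell by 1.14, the replication initiator Mcm10 by 1.24 and the ribonucleotide reductase subunits Rrm2 and Rrm1 by 1.13 and 0.87. Under the other scalings 13 to 15 mitosis genes and 11 to 13 replication genes were called lower, and 1 replication gene, the flap endonuclease Fen1, was called higher. Targets of p53 were mixed (median -0.05), with 5 of 19 higher (26.3%, against 12.5% of all genes) and 7 lower (36.8%, against 25.3%). Sesn1 (0.62) and Gadd45a (0.58), which act in stress and DNA repair, rose. The death receptor Fas (-1.08) and the apoptosis-associated desmosomal protein Perp (-0.88) fell, and the cell cycle inhibitor Cdkn1a had a change of 0.11 that was not called. Under the other scalings 7 or 8 of these targets rose and 5 to 7 fell. Of 18 apoptosis regulators 7 fell and 1 rose, a balance that scaling turned: 4 fell and 2 rose after quantile normalization, 1 fell and 2 rose after median centring, and 5 fell and 3 rose after cyclic loess. As deposited, the one that rose was Bcl2l1, whose main product protects cells from death, by 0.41 ± 0.08. Casp9, the initiator caspase of the mitochondrial pathway, fell by 0.53, and the death-promoting Bid and Bcl2l11 by 0.33 and 0.32, of which Bcl2l11 was not called after quantile normalization or median centring and Bid not after median centring.

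The clearest list-wide fall was in interferon-stimulated genes. Of 23 measured members 19 fell and 0 rose, 14 of them at least 2-fold, with a median of -1.19. These genes are switched on by interferon signalling and make antiviral and antigen-processing proteins. Usp18, the protease that removes the ubiquitin-like protein ISG15, had 5.02, 4.61 and 5.35 in challenged arrays and 7.44, 7.32 and 7.34 in steady 600 arrays, a change of -2.37 ± 0.15. Gbp2, a guanylate-binding protein, had 6.51, 6.45 and 6.77 in challenged arrays and 8.52, 8.45 and 8.55 in steady 600 arrays, a change of -1.93 ± 0.08. All 3 challenged arrays lay more than 1.5 log2 units below steady 600 in both genes. Isg15 itself changed by -1.74 ± 0.11, the immunoproteasome subunit Psmb9 by -1.79 ± 0.10, Ifit3 by -1.90 ± 0.18 and Irf7, a transcription factor that amplifies interferon output, by -1.36 ± 0.13. The members without a call were Mx1 (-0.10), Tap1 (-0.16), Cxcl10 (0.18) and Ifi44 (0.28). The count of lower members was 19 under each of the other 3 scalings and without replicate 9, and 1 or 2 members rose under those scalings.

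Promoters of interferon-stimulated genes often carry a short recurring element. Shown are 3 windows, chosen among those that hold it, of genes that fell. The windows run from 250 bases before to 50 bases after the gene start, from RefSeq on GRCr8, written 5′ to 3′ on the gene's strand, and capitals mark the element's core, GAAA, any 2 bases and GAAA again, on either strand.
Gbp2, chr2:234005477-234005776, plus strand: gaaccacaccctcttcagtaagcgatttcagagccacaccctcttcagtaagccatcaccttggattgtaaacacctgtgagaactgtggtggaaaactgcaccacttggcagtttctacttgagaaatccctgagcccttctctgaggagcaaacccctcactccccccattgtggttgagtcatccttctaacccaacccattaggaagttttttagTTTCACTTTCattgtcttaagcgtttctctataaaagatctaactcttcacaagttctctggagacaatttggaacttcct
Ifit3, chr1:241527076-241527375, plus strand: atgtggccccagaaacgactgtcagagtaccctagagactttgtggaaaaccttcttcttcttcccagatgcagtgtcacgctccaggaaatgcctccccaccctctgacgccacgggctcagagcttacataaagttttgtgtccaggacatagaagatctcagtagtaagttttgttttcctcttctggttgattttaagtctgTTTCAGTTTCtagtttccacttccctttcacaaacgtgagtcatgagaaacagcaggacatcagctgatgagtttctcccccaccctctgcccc
Irf7, chr1:205799974-205800273, minus strand: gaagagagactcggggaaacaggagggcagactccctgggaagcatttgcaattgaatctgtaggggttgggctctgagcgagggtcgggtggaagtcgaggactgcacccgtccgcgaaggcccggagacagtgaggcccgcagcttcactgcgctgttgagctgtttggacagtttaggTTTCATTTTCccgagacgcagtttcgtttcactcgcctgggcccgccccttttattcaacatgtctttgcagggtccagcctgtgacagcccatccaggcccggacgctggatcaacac
Promoter windows were found for 18 of the 23 measured members, and 11 of them (61.1%) held the core, against 3.92% of 33469 windows of the same length. Among the 11968 windows of measured genes the share was 3.41%. Of these 11 genes, Cxcl10, Ifi44 and Tap1 were not called. Usp18, Ifit1, Psmb9 and Isg15, which fell, were not among the 11, for lack of a window or of the core. A match of letters is no evidence of binding in these cells.

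Mitosis genes carry another such element, the CCAAT box, and the windows of the 2 mitosis genes with the largest falls show it in capitals, from the same source.
Ttk, chr8:93634389-93634688, plus strand: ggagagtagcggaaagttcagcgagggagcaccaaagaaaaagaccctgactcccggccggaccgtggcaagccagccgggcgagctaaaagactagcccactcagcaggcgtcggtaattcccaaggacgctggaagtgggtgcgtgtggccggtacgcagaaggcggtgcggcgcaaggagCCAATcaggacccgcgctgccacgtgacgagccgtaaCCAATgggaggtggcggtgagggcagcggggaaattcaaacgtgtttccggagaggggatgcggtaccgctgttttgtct
Ccnb1, chr2:33655176-33655475, minus strand: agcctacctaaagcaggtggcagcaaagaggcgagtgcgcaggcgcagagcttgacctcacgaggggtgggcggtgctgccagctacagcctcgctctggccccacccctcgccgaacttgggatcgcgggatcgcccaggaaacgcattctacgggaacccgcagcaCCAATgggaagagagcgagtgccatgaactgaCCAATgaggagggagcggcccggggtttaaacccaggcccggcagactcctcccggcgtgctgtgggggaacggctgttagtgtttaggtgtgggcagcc
The box stood in 12 of 16 mitosis gene windows (75%), against 37.5% of all windows and 38.3% of those of measured genes. The sterol response element TCACNCCAC was in 0 of 13 windows of the cholesterol list, against 1.12% of all windows and 1.09% of those of measured genes. The tonicity response element was in 1 of 8 windows of the tonicity list, that of Slc6a6. Its share was 5.98% of all windows and 4.41% of those of measured genes.

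**Figure D3:**
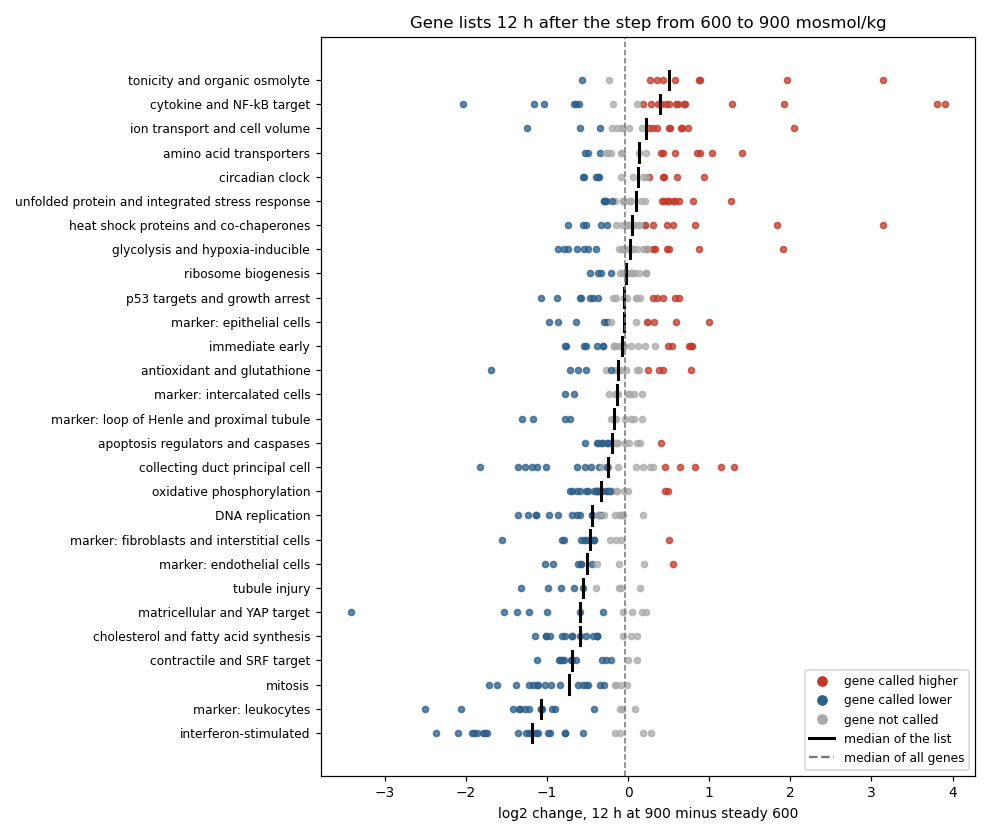
Log2 change, challenged minus steady 600 (horizontal axis), of every measured member of each gene list, ordered by median. Red points were called higher, blue points lower and grey points neither, black bars are list medians and the dashed line is the median of all genes, -0.03. The tonicity list has the highest median (0.50) and the interferon-stimulated list the lowest (-1.19).

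Markers of leukocytes, chiefly macrophages, were lower as well: 13 of 16 fell, 0 rose and 10 fell at least 2-fold, with a median of -1.08. Their mean level was 5.95 to 6.19 in challenged arrays and 7.06 to 7.12 in steady 600 arrays. Fcer1g, an Fc receptor signalling chain, changed by -2.06 ± 0.13, Vsig4 by -2.51 ± 0.14 and Csf1r, the receptor for macrophage growth factor, by -1.41 ± 0.11. The defining leukocyte gene Ptprc (CD45) had 5.62, 5.95 and 6.37 in challenged arrays and 6.86, 7.05 and 6.86 in steady 600 arrays. Clec4a3, Casp1, Cp, C3, Ly6c and the interferon-stimulated genes moved in the same direction as these markers, and the part of leukocytes in their fall was not tested. Of 14 fibroblast markers 10 fell and 1 rose (median -0.47), among them Dcn (-1.56), Vim (-0.81) and Col3a1 (-0.48), and the one that rose was Postn (0.51). Of 10 endothelial markers 6 fell and Emcn rose (0.56), with Kdr (-1.02) and Tie1 (-0.92) the clearest falls. Of 11 markers of the loop of Henle and proximal tubule 4 fell (36.4%, against 25.3% of all genes). Among them were the claudins Cldn10 (-1.31), Cldn19 (-1.17) and Cldn16 (-0.71). Of 10 intercalated cell markers 2 fell, Rhbg (-0.78) and Slc26a4 (-0.67), a share of 20% against 25.3% of all genes. Among the 12 epithelial markers 4 rose and 5 fell as deposited, whereas 5 or 6 rose and 3 fell under the other scalings: the kidney transcription factors Pax2 (0.99) and Pax8 (0.59) rose, and the keratins Krt18 (-0.98) and Krt8 (-0.86) fell.

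Cytokine and NF-kB target genes rose while the interferon genes fell, with 14 of 22 higher, 6 lower and a median of 0.39. Beside Ptgs2 and Ccl20, the neutrophil chemokine gene Cxcl2 had 7.08, 7.30 and 6.42 in challenged arrays and 5.35, 5.16 and 4.55 in steady 600 arrays, a rise of 1.92 ± 0.17. Tnf rose by 1.28 ± 0.16 and Ccl2, which attracts monocytes, by 0.68 ± 0.06. The members that fell were Cxcl6 (-2.04), Lif (-1.17), the interleukin 1 receptor antagonist Il1rn (-1.03), Vcam1 (-0.67), Il6 (-0.65) and Il1a (-0.61). Immediate early genes were split (median -0.07), with 5 of 23 higher (21.7%, against 12.5% of all genes) and 7 lower (30.4%, against 25.3%). Under the other scalings 6 or 7 went in each direction. Klf4 (0.78), Ier3 (0.77) and Fosl2 (0.75) rose, and Egr1 (-0.78) and Junb (-0.76) fell.

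Cholesterol and fatty acid synthesis genes fell as a group: 14 of 17 were lower, 0 higher, median -0.60. Idi1, the isopentenyl diphosphate isomerase, had 7.69, 7.81 and 8.47 in challenged arrays and 9.18, 9.19 and 9.07 in steady 600 arrays. Replicate 9 was the least reduced, and the groups did not overlap. Fdft1, the squalene synthase, changed by -1.01 ± 0.09, Msmo1 by -1.01 ± 0.10, Insig1, a sterol-regulated brake on the pathway, by -0.97 ± 0.10 and Lss by -0.69 ± 0.07. The list's count of 14 lower genes was the same under all 3 other scalings and without replicate 9.

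Genes of the actin cytoskeleton and of YAP fell too. Of 11 matricellular and YAP targets 7 were lower and 0 higher (median -0.59). Beside Ankrd1, Ccn1 had 9.63, 9.62 and 9.53 in challenged arrays and 11.03, 11.12 and 11.21 in steady 600 arrays, a change of -1.53 ± 0.08. Ccn2 was 1.998-fold lower, and the receptor kinase Axl changed by -1.23 ± 0.10. The growth factor Tgfb2 changed by -1.37 ± 0.14. Of 13 contractile genes and targets of serum response factor, 11 fell and 0 rose (median -0.69), with smooth muscle calponin Cnn1 at -1.12 ± 0.14, actin Acta2 at -0.86 ± 0.10, tropomyosin Tpm1 at -0.85 ± 0.08 and the myosin light chain Myl9 at -0.80 ± 0.10. Srf itself had a change of -0.01. Under the other scalings 6 or 7 YAP targets fell and 2 rose, and 8 to 10 contractile genes fell and 1 rose. Several of these are also expressed by the fibroblasts whose markers fell, and the part of those cells was not tested. Of 9 tubule injury genes 5 fell and 0 rose, led by Lcn2 (-1.33), Timp2 (-0.99) and Timp1 (-0.82).

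Energy metabolism genes moved by small amounts. Of 24 subunits of oxidative phosphorylation 16 fell, 2 rose and none passed 2-fold, with a median of -0.33. The largest falls were in Atp5po (-0.71), Sdhc (-0.70), Uqcrc2 (-0.63) and Cox5a (-0.59), of the ATP synthase and of complexes II, III and IV, and the members that rose were the complex I genes Ndufa2 (0.49) and Ndufa1 (0.45). Atp5po had 8.57, 8.55 and 8.08 in challenged arrays and 9.11, 9.14 and 9.11 in steady 600 arrays, with replicate 9 the lowest. Scaling mattered here, since 12 of the 24 were lower after quantile normalization and 10 after median centring or cyclic loess, and 14 without replicate 9. Glycolytic and hypoxia-inducible genes had 7 of 24 members higher and 7 lower as deposited (median 0.02). This is 29.2% in each direction, against 12.5% and 25.3% of all genes. Under the other scalings 10 to 13 were higher and 7 lower. Vegfa, the vascular growth factor, rose by 1.91 ± 0.10 and the glucose-trapping hexokinase Hk2 by 0.87 ± 0.08, while the lactate exporter Slc16a3 fell by 0.87 and Pgk1 by 0.55.

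Of 22 genes of the unfolded protein and integrated stress responses, 9 rose and 4 fell (median 0.09), and under the other scalings 11 to 14 rose and at most 1 fell. The regulators of translation led: Ppp1r15a (GADD34), which restores translation after stress, had 9.15, 9.24 and 9.32 in challenged arrays and 7.99, 7.94 and 7.99 in steady 600 arrays, a rise of 1.27 ± 0.09. Ddit3 (CHOP) rose by 0.79 ± 0.10 and Atf4 by 0.55 ± 0.07, while among the endoplasmic reticulum chaperones Hyou1 rose by 0.49 and Hspa5 (0.16) was not called. Antioxidant genes were mixed (median -0.12), with 4 of 17 higher (23.5%, against 12.5% of all genes) and 5 lower (29.4%, against 25.3%). Under the other scalings 5 or 6 were higher and 4 lower. Hmox1 rose by 0.78 ± 0.10, Mgst1 was 3.24-fold lower, and Gpx2 and Txnrd1 fell by 0.71 and 0.52 on the log2 scale. Among ribosome biogenesis genes 4 of 17 fell (23.5%, against 25.3% of all genes) and 0 rose (median -0.03). This direction turned with scaling, with 3 lower and 4 higher after quantile normalization, 1 and 5 after median centring, and 1 and 2 after cyclic loess. Those 4 were Nop56 (-0.47), Nop58 (-0.37), Gnl3 (-0.34) and Npm1 (-0.21), and of these only Nop56 was called lower under all 3 other scalings. Of 14 circadian clock genes 5 rose and 5 fell (median 0.12), and under the other scalings 7 rose and 4 or 5 fell. The repressor Cry1 had 7.65, 7.83 and 7.80 in challenged arrays and 6.64, 6.81 and 7.04 in steady 600 arrays, a rise of 0.93 ± 0.11, and the activators Clock (0.61) and Bmal1 (0.43) rose, while Per2 fell by 0.39. The labels do not give the clock time of sampling.

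The 24 h arrays show where the same challenge led next. Changes here are 24 h minus 12 h and share the 12 h arrays with the values above, so the 2 sets of changes are not independent and only each comparison's own values are given. At 24 h, 3046 genes were higher (21%) and 1661 lower (11.5%) than at 12 h, 32.4% in all, and 223 (1.54%) and 52 (0.358%) passed 2-fold. The balance of directions depended on scaling here too, with 2361 higher and 2530 lower after quantile normalization, 2292 and 2604 after median centring, and 2494 and 2360 after cyclic loess. All 23 interferon-stimulated genes were higher at 24 h than at 12 h, with a median of 1.57. Usp18 led with 3.15 ± 0.15, ahead of Ifit1 (3.00), Mx2 (2.75) and Irf7 (2.44). Rtp4, an interferon-induced gene outside that list, was higher by 2.45. Of 24 collecting duct genes 14 were higher and 0 lower at 24 h, among them Aqp2 (1.99 ± 0.20) and Aqp3 (2.33 ± 0.17). Cholesterol genes were higher in 12 of 17 and oxidative phosphorylation genes in 17 of 24. Mitosis genes had a median of 0.00, with 4 of 20 higher and 2 lower. The largest decreases between 12 and 24 h were Kcnj13 (-2.23), Il1rl1 (-2.01), Npy4r (-1.94), Krt23 (-1.68) and Ccl20 (-1.65). Leukocyte markers had 2 of 16 higher and 7 lower at 24 h than at 12 h.

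Other cells had been cultivated at 900 mosmol/kg, the osmolality that the challenged cells met for 12 h. Against steady 900, 2236 genes were higher (15.4%) and 3350 lower (23.1%) in challenged cells, 38.5% in all, with 152 (1.05%) and 523 (3.61%) past 2-fold. After quantile normalization 3163 were higher and 2753 lower, and after median centring 3826 and 2515, so that the balance turned. The challenged arrays enter this comparison too. Ptgs2 stood 4.82 ± 0.09 above steady 900, Il1rl1 4.19, the collagen gene Col11a1 3.27, Dlgap5l2 3.04 and Thy1 3.02 above it. Il1rl1, Col11a1 and Thy1 had changes of -0.47, -0.15 and -0.46 from steady 600 at 12 h, and were low in steady 900. Thy1 is one of the fibroblast markers, of which 9 of 14 were higher than in steady 900 and 1 lower, a median of 0.84. The part of fibroblasts in these differences was not tested. The largest deficits against steady 900 were in the urea transporter Slc14a1 (-3.91), the kinase Pbk (-3.62), Aqp3 (-3.14), Pclaf (-3.05) and Casp1 (-3.02). All 21 DNA replication genes and 19 of 20 mitosis genes were lower than in steady 900, with medians of -1.10 and -1.54. Of the collecting duct genes 15 of 24 were lower and 0 higher, with Aqp2 at -2.09 and Slc14a2 at -1.06. Of the 10 tonicity and organic osmolyte genes 5 were higher than in steady 900 and 2 lower. Those above it were Hspa4l (1.94), Slc6a6 (0.49), Slc5a3 (0.44), Slc38a2 (0.42) and Akr1b1 (0.28), and those below it Sord (-0.66) and S100a4 (-0.41).

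**Figure D4:**
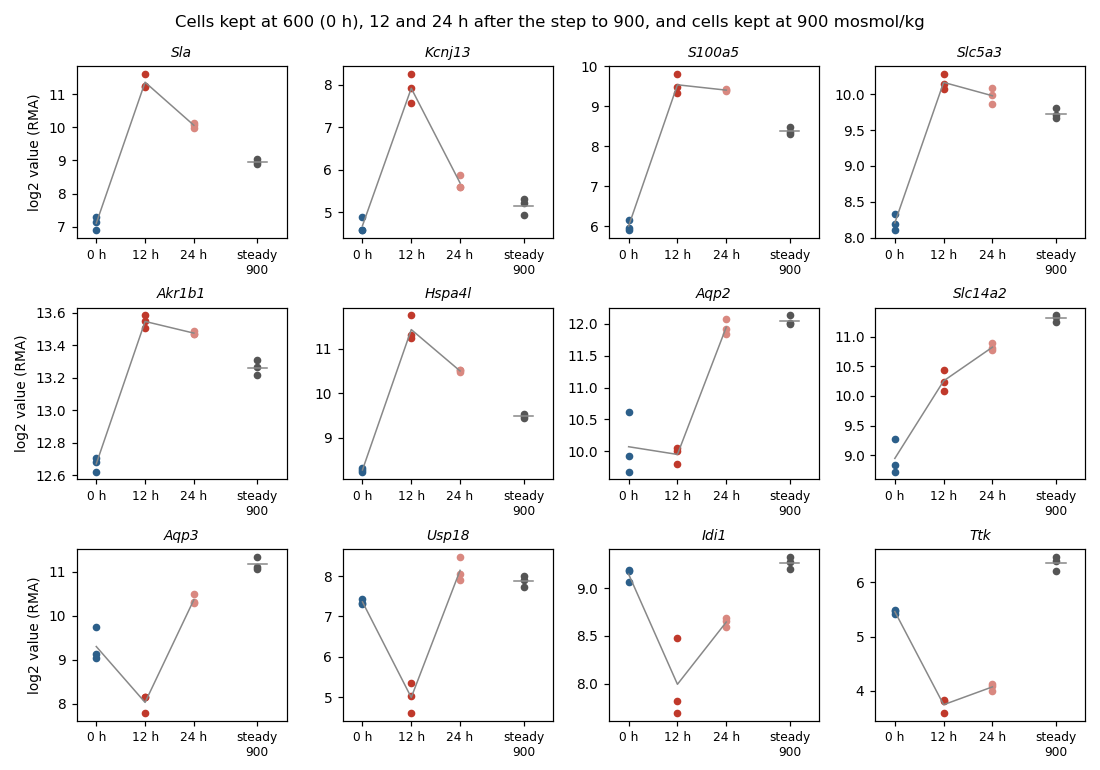
Log2 value of each array (points) and group means (lines) for 12 genes in cells kept at 600 mosmol/kg (0 h), 12 h and 24 h after the step to 900 mosmol/kg, and in cells kept at 900 mosmol/kg, with a separate vertical scale for each gene. Sla and Kcnj13 are highest at 12 h, Usp18 lowest, Aqp2 and Aqp3 stand higher at 24 h than at 12 h, and Ttk is low at both times.

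The series also holds a 12 h step from 300 to 600 mosmol/kg with its own controls, which shares no array with the comparison of challenged and steady 600 cells. Across the 14506 genes the changes of the 2 steps had a Pearson correlation of 0.643, as a description across genes, which are not independent replicates. Of the 554 genes changed at least 2-fold after the step to 900 mosmol/kg, 512 (92.4%) had the same sign after the step to 600 mosmol/kg, against 69.9% of all genes. By direction these were 124 of the 142 higher genes and 388 of the 412 lower ones.

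The difference between the steps was tested as an interaction, and 896 genes responded more positively to the step to 900 mosmol/kg (6.18%) and 1051 more negatively (7.25%). After cyclic loess the balance turned, to 1141 and 885. Without replicate 9 the count of more negative genes was higher, at 1743. At least 2-fold differences numbered 147 (1.01%) and 146 (1.01%), and 138 and 159 without replicate 9. S100a5 differed most, with a rise of 3.53 after the step to 900 mosmol/kg and a change of -0.49 after the step to 600 mosmol/kg, a difference of 4.02 ± 0.20 (adjusted p = 3.90e-14, limma). Sla (4.26 and 0.76) and Npy4r (3.32 and 0.03) followed. Scgb1a1 (0.64 and -2.47) and the amino acid importer Slc6a14 (0.41 and -2.69) differed chiefly through their fall after the lower step. In the other direction, Vsig4 (-2.51 and 0.16), Slc28a2 (-2.31 and 0.23), Clec4a3 (-3.08 and -0.63), Clec4a2 (-2.12 and 0.08) and Egr1 (-0.78 and 1.45) differed most.

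For the osmolyte importer Slc5a3 and the chaperone Hspa4l the interaction was not called. Slc5a3 rose by 1.96 after the step to 900 mosmol/kg and by 1.99 after the step to 600 mosmol/kg, a difference of -0.03 ± 0.13 (adjusted p = 0.923, limma), and Hspa4l by 3.14 and 3.16, a difference of -0.02 ± 0.14. Akr1b1 differed, with 0.88 after the step to 900 mosmol/kg and 2.39 after the step to 600 mosmol/kg. Its control means were 12.67 in steady 600 and 10.93 in steady 300 arrays. The means after the steps, 13.55 at 900 and 13.32 at 600 mosmol/kg, both lay near the top of the scale. Of the lists, leukocyte markers had 13 of 16 members lower in the interaction and 0 higher. Their median change was -1.08 after the step to 900 mosmol/kg and 0.06 after the step to 600 mosmol/kg. Interferon-stimulated genes had 14 of 23 members lower and 0 higher, DNA replication genes 11 of 21 lower and 0 higher, and YAP targets 7 of 11 lower and 0 higher. Cytokine genes had 8 of 22 higher and 2 lower, and stress response genes 8 of 22 higher and 0 lower. Cholesterol genes had 1 of 17 in each direction, with medians of -0.60 after the step to 900 mosmol/kg and -0.46 after the step to 600 mosmol/kg.

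**Figure D5:**
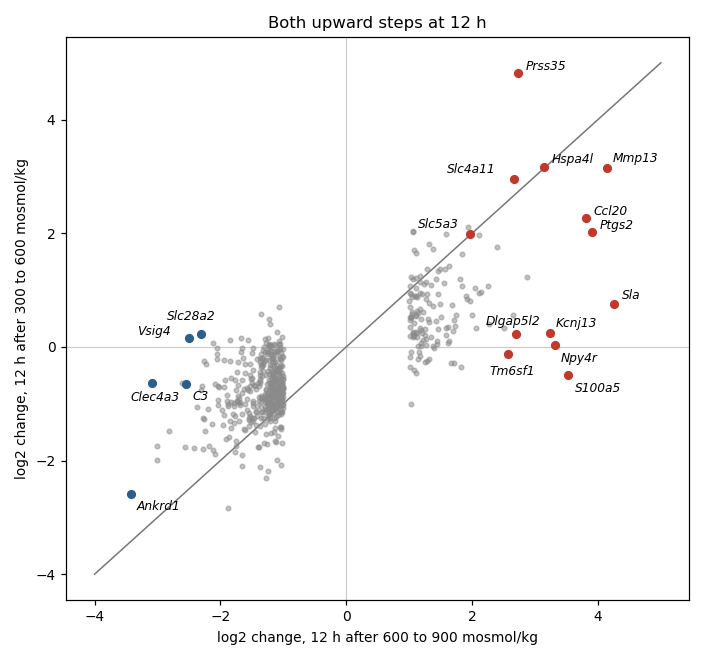
Log2 change 12 h after the step from 600 to 900 mosmol/kg (horizontal axis) and 12 h after the step from 300 to 600 mosmol/kg (vertical axis) for the 554 genes changed at least 2-fold in the first. The grey diagonal marks equal change and coloured points are named genes; Hspa4l and Slc5a3 lie on the diagonal, while S100a5, Npy4r, Kcnj13 and Tm6sf1 lie near 0 on the vertical axis or below it.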

How the data were processed

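The authors deposited log2 values made with RMA (robust multi-array average, which corrects background, scales arrays and summarises probes), per the submitters' processing notes; neither its version nor its settings are known here. The platform annotation gave 15310 of 29170 probe sets 1 gene symbol, 323 several and 13537 none. Each gene was represented by its brightest single-symbol probe set, which left 14506 genes. No genome build is named for the probe annotation, so positions are given only for promoter windows, from RefSeq on GRCr8.

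Samples were grouped by title. limma 3.58.1 in R 4.3.3 fitted 1 mean per group over all 30 arrays with eBayes, with p-values adjusted by Benjamini-Hochberg and judged at 0.05. Precision is limited by 3 arrays per group. The 12 h response to the step from 600 to 900 was compared with steady 600, 24 h, steady 900 and the 12 h step from 300 to 600. Alternatives were quantile normalization, median centring, cyclic loess, a filter on dim genes, averaging all probe sets of a gene, array weights, trend and robust variance, only the compared arrays, the replicate number as a block, leaving out each array, and leaving out all arrays numbered 9.

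Members, lists, naming rule and tests were all chosen with earlier results of these data known. Named were the 15 genes with the largest rise and the 15 with the largest fall among those whose groups did not overlap, up to 4 members with the smallest adjusted p of each of 22 functional lists, up to 3 of each of 6 marker lists, and always Nfat5, Akr1b1, Slc5a3, Slc6a6, Slc14a2 and Aqp2. In the other comparisons these were the 5 largest changes each way. Symbols starting with LOC, RGD, MGC or AABR were left out, and further list members named were chosen after their values were seen.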

Additional observations from a re-analysis of the deposited data

Results flagged for a closer look

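The 12 h change after the step from 600 to 900 mosmol/kg differed from the 12 h change after the step from 300 to 600 mosmol/kg in 90 named genes, by the interaction term of the limma fit at an adjusted p below 0.05. The values here are the first change minus the second on the log2 scale. Groups of 3 arrays were too small for a search for single outlying arrays.

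Among the genes with the largest rises, the change was more positive after the step to 900 mosmol/kg for S100a5 (4.02), Sla (3.50), Npy4r (3.29), Kcnj13 (3.00), Tm6sf1 (2.68), Dlgap5l2 (2.47), Tmem72 (2.17) and Fa2h (2.09). Inflammatory, keratin and matrix genes followed with Ptgs2 (1.88), Krt23 (1.64), Ccl20 (1.54), Mmp13 (1.00) and Ccl2 (0.46). Transporters were Slc7a1 (1.42), Slc12a2 (1.02), Slc14a2 (0.81), Slc7a6 (0.48) and Slc6a9 (0.42). Genes of tonicity, stress, signalling, metabolism and the clock were Cry1 (1.11), Vegfa (1.01), Hk2 (0.91), Gadd45a (0.88), S100a4 (0.87), Sesn1 (0.76), Adcy6 (0.55), Bmal1 (0.51), Atf4 (0.46) and Ppp1r15a (0.42). The endothelial marker Emcn (0.67) changed more positively as well. Some of these genes had not risen after the step to 600 mosmol/kg, among them S100a5 (-0.49), Tm6sf1 (-0.12) and Slc7a1 (-0.02). Scgb1a1 (3.11), Slc6a14 (3.10), Slc9a4 (0.94), Slc26a4 (0.77) and Bcl2l11 (0.65) also had positive differences, and each had a change below 0 after the step to 600 mosmol/kg.

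Increases that were smaller after the step to 900 mosmol/kg were found for Prss35 (-2.09), Akr1b1 (-1.51), Slc38a4 (-1.30), Hspa2 (-0.67), Stk39 (-0.56) and Klf4 (-0.52). Egr1 (-2.23) had a change below 0 after the step to 900 mosmol/kg and above 0 after the step to 600 mosmol/kg.

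Genes that were lower after the step to 900 mosmol/kg and differed in the negative direction included myeloid, complement and inflammatory genes. These were Vsig4 (-2.67), Clec4a3 (-2.46), Clec4a2 (-2.20), Fcer1g (-2.05), C3 (-1.88), Casp1 (-1.26) and Csf1r (-1.20). Of them, Vsig4 and Clec4a2 had changes above 0 after the step to 600 mosmol/kg. Interferon-induced genes were Gbp2 (-1.35), Usp18 (-1.31), Ly6c (-1.03), Rtp4 (-0.80), Isg15 (-0.78), Ifi47 (-0.63) and Psmb9 (-0.62). Carriers, reductases and secreted proteins were Slc28a2 (-2.54), Cp (-1.98), Dhrs9 (-1.60), Dhrs3 (-1.55), Slc34a2 (-1.34), Lcn2 (-1.27), Mmp7 (-1.02), Lif (-0.91) and Mgst1 (-0.67). Genes of DNA replication and mitosis were Tyms (-1.23), Ttk (-0.86), Cdc6 (-0.81), Rrm1 (-0.77), Rrm2 (-0.69) and Ccnb1 (-0.61).

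Junction, channel and keratin genes were Cldn10 (-1.07), Scnn1a (-0.87), Rhbg (-0.81), Cldn19 (-0.74), Perp (-0.49), Krt8 (-0.44), Krt18 (-0.38) and Cox5a (-0.43), the last a subunit of cytochrome oxidase. Cytoskeletal, matrix and YAP-linked genes were Ccn1 (-0.84), Ankrd1 (-0.83), Ccn2 (-0.82), Dcn (-0.81), Timp2 (-0.77), Acta2 (-0.63), Axl (-0.59), Junb (-0.56), Myl9 (-0.50), Vim (-0.47), Tpm1 (-0.46) and Timp1 (-0.32).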

How the results depend on the processing

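Array scaling moved the balance of directions. Against steady 600, higher calls numbered 2944 after quantile normalization and 4018 after median centring, and lower calls 2444 after median centring. For 24 h against 12 h, lower calls numbered 2530 after quantile normalization, 2604 after median centring and 1086 with only the compared arrays fitted, and lower calls past 2-fold 80 after median centring; under the first 2 the majority turned from higher to lower. Against steady 900, higher calls numbered 3826 after median centring, and there and after quantile normalization the majority turned from lower to higher. In the comparison of the 2 steps, array weights and replicate 9 moved the lower calls more than scaling: array weights gave 1477 higher and 2170 lower calls, leaving out the arrays numbered 9 gave 1645 lower calls, and leaving out 1 array at a time gave 852 to 1743 lower calls, the highest without replicate 9 of the challenged arrays; the cause was not tested. Deviations from the group means correlated at -0.10 for replicate 1 and 0.02 for replicate 2, and at -0.17 to 0.17 between unlike replicate numbers. With 3 arrays per group, such values cannot settle whether replicate numbers paired the samples. The replicate block gave 1794 higher and 3704 lower calls against steady 600. Of 131 named genes, Bcl2l11, Bid, Gnl3, Nop58 and Npm1 lost their call under at least 1 alternative, and Npm1 had a change of 3.07e-05 after cyclic loess; without replicate 9 and with the replicate block all 131 kept their direction and side of the threshold. Dim genes near background and Akr1b1 near the top of the scale have changes that can be understated.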
